A study of Mus musculus with 28 samples.

Results

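The proteasome genes were taken as every gene symbol that begins with Psm, then a letter from a to g, then a digit, in both deposited count tables. The rule found 49 of the 23393 symbols that both tables hold. They fall into 8 genes of the 20S alpha rings, 8 of the constitutive 20S beta rings, 3 inducible beta genes of the immunoproteasome, 6 ATPases and 11 other subunits of the 19S cap, 7 assembly chaperones and 5 activators or inhibitors. The remaining symbol, Psmc3ip, encodes a partner of the meiotic recombination machinery and no proteasome subunit. Of the 49 genes, 48 passed the low-count filter. The gene that did not was Psmb11, the beta subunit of the thymus, with 0 or 1 read in each library.

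The proteasome is the barrel-shaped protease that destroys proteins tagged with ubiquitin. Its core particle holds outer rings of alpha subunits, which gate the pore, and inner rings of beta subunits, of which Psmb5, Psmb6 and Psmb7 carry the peptide-cutting sites. The cap opens the gate: its ATPases unfold the substrate, and its other subunits bind ubiquitin and remove it. Interferon-gamma is known to replace the constitutive cutting subunits by Psmb8, Psmb9 and Psmb10, which gives the immunoproteasome of leukocytes and inflamed tissue, and the resulting peptides are shown on MHC class I.

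The samples are 28 livers of 129svj mice aged 11 to 13 months, 7 in each of 4 groups. The groups are SIRT6 heterozygotes given WY-14643 (HZ WY), wild type mice given WY-14643 (WT WY), SIRT6 heterozygotes given the vehicle carboxymethylcellulose (HZ vehicle) and wild type mice given that vehicle (WT vehicle). WY-14643 is a synthetic ligand of PPAR-alpha, the nuclear receptor that drives fatty acid breakdown in hepatocytes. It was given by mouth at 50 mg/kg in 0.5% carboxymethylcellulose, and livers were taken 12 h later. SIRT6 is a chromatin deacetylase, and the heterozygotes keep a wild type copy of the gene. The sources used here give neither the sex of the mice nor the design of the allele.

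Reads assigned to genes numbered 15795201 to 20020078 per library, and 12607 genes were tested. Sirt6 itself was at 1.29 to 2.29 CPM (reads scaled to the same total in every library) in HZ WY and 2.27 to 4.18 CPM in WT WY livers, and at 0.882 to 1.38 CPM in HZ vehicle and 1.91 to 3.53 CPM in WT vehicle livers. Hepatocyte markers were present throughout, with Alb at 30748 CPM or more in every library. The median sum of 6 hepatocyte markers was 57723.2 CPM in HZ WY against 90393.1 CPM in HZ vehicle livers. In WT livers it was 66880.5 CPM with WY against 90015.6 CPM with vehicle. EdgeR called 4 of the 6 lower and 0 higher with WY in each genotype. Among all genes tested, 26.4% were lower in HZ and 26.7% in WT livers. The part of this fall in the changes of the proteasome genes was not tested. On the second principal component (10.9% of the variance) 5 HZ libraries stood apart, namely HZ WY animals 14, 15 and 21 and HZ vehicle animals 30 and 38. Results that rest on these libraries are given with and without them. The animals given WY carry other number series than the animals given vehicle, and each treatment has its own count table, so treatment and series cannot be told apart. These are whole livers, in which fewer cells of a type and less RNA per cell cannot be told apart.

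The promoters of the genes that differ most in behaviour are shown first: Psmd4, the subunit that changed most with WY, Psmb5, a constitutive cutting subunit that rose, and the inducible Psmb8 and Psmb9, which did not rise. Each runs from 250 bases before to 50 after the RefSeq start site, 5′ to 3′ on the gene's strand, in build GRCm38.p6. Capitals mark matches to 4 patterns searched on both strands: 2 copies of GAAA with 2 bases between them for interferon regulatory factors, TTCNNNGAA for STAT factors, TGACNNNGC for the antioxidant type bound by Nfe2l1 and Nfe2l2, and 2 copies of AGGTCA with 1 base between them for PPAR with its partner RXR. The matches begin at -80 in Psmd4 (interferon regulatory factor pattern, on the opposite strand), -47 in Psmb5 (antioxidant pattern) and -97 in Psmb8 (STAT pattern), counted from the start site. Psmb9, printed without capitals, had no match in this window.
Psmd4 (chr3:95042565-95042864, minus strand): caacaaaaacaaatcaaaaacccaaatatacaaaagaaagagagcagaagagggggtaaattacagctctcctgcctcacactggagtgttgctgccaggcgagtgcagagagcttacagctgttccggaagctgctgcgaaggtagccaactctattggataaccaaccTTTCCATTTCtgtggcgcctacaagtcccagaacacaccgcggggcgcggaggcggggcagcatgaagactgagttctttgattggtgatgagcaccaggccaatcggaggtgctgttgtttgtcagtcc
Psmb5 (chr14:54617946-54618245, minus strand): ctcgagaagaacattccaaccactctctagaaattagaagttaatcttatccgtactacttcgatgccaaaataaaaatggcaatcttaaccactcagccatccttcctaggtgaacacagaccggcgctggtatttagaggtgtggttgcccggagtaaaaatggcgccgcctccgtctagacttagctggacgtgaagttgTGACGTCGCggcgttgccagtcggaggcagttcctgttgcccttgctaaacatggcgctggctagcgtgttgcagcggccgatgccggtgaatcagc
Psmb8 (chr17:34197945-34198244, plus strand): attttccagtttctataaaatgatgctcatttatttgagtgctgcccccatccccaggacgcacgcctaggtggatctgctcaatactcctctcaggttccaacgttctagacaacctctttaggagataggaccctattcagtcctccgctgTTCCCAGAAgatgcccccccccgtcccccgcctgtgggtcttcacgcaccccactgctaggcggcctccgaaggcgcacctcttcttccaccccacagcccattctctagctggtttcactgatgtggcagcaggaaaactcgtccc
Psmb9 (chr17:34187281-34187580, minus strand): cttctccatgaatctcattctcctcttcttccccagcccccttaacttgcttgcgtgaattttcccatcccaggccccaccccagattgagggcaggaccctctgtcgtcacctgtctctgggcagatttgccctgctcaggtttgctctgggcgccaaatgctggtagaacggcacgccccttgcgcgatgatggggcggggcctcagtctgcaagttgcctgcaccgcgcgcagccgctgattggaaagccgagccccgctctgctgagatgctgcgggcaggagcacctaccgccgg

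Promoters were at hand for 41 of the 49 genes. The interferon regulatory factor pattern was in 5 of the 41 (12.2%), among them Psmd4, against 3.44% of all 32851 promoters of this length, and in 0 of the 3 immunoproteasome promoters. The STAT pattern was in 3 of the 41 (7.32%), among them Psmb8, against 8.3% of all promoters. The antioxidant pattern was in 6 of the 41 (14.6%), among them Psmb5 and Psmb6, against 12.4% of all promoters. Its stricter form TGACTCAGC, which is contained in it, and the PPAR pattern were in 0 of the 41, against 0.454% and 0.0396% of all promoters. A match describes the letters and is not a binding site.

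Taken per kilobase of transcript over all 28 libraries, Psmb4 had the highest mean level of the 49 genes (186 CPM per kb, range 103 to 269), followed by Psma7 (168 CPM per kb) and Psmb6 (162 CPM per kb). The immunoproteasome genes lay near the bottom, with Psmb10 at 12.0 CPM per kb (7.86 to 20.1), Psmb8 at 9.24 CPM per kb (4.61 to 23.9) and Psmb9 at 5.60 CPM per kb (3.01 to 13.2). These 3 ranges overlap one another. Psmb5 was the lowest of the constitutive cutting subunits, at 20.2 CPM per kb (12.0 to 31.6). Psma8, the alpha subunit of the testis, was at 1.71 CPM per kb.

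The first comparison asks how the livers responded to WY in each genotype. Nearly every gene of the constitutive proteasome rose 12 h after WY in heterozygous and in wild type livers, whereas none of the 3 immunoproteasome genes was called higher in either. In HZ livers 37 of the 48 tested genes were higher with WY and 1 was lower, against 29.3% higher and 26.4% lower among all genes tested. In WT livers 40 of the 48 were higher and 1 was lower, against 27.4% higher and 26.7% lower among all genes. A gene was called at a Benjamini-Hochberg adjusted p under 0.05 in edgeR's quasi-likelihood test on all 28 libraries. The median log2 fold change of the 48 genes was 0.47 in HZ livers, beside 0.011 over all genes tested, and 0.43 in WT livers, beside -0.017 over all genes tested. The genes took up 0.451 to 0.550% of all gene reads in HZ WY livers against 0.329 to 0.418% in HZ vehicle livers, and 0.527 to 0.583% in WT WY livers against 0.375 to 0.413% in WT vehicle livers.

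**Figure D1:**
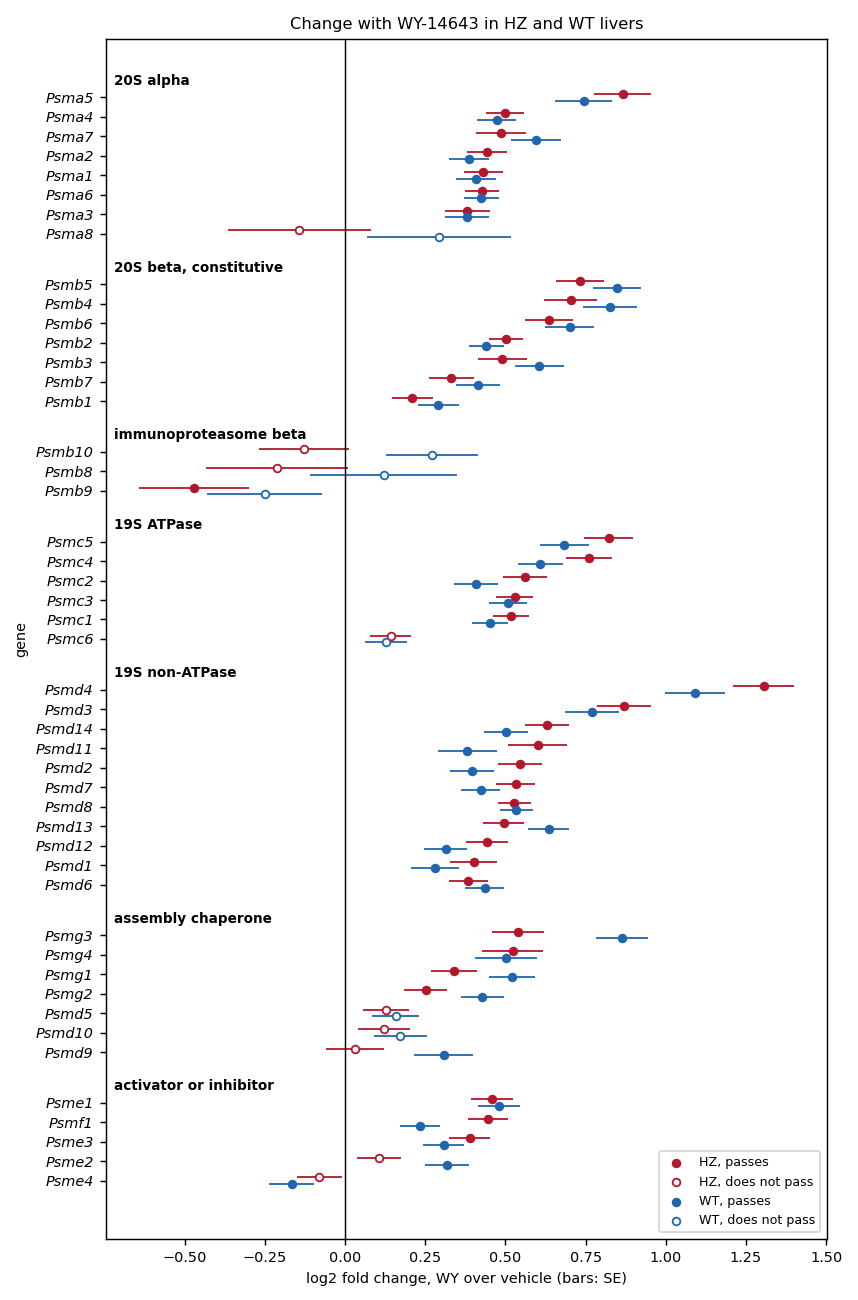
Log2 fold change of WY over vehicle (x axis, bars are standard errors) for each tested proteasome gene (y axis, by class, without Psmc3ip) in HZ (red, upper) and WT (blue, lower) livers, with filled points for genes that passed the test. The core and cap genes other than Psma8 lie right of 0, Psmd4 farthest at 1.30 in HZ and 1.09 in WT livers, while the 3 immunoproteasome genes lie on both sides of 0.

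Among the genes of the cap, Psmd4, which encodes the ubiquitin receptor Rpn10, changed most. It was at 200 CPM in the lowest, 245 CPM in the median and 310 CPM in the highest HZ WY liver, against 74.8, 102 and 116 CPM in HZ vehicle livers. In WT livers it was at 257, 272 and 302 CPM with WY and at 103, 139 and 149 CPM with vehicle. The groups do not overlap in either genotype, and the log2 fold change was 1.30 ± 0.09 in HZ (± SE, edgeR adjusted p = 1.91e-11) and 1.09 ± 0.09 in WT livers (adjusted p = 2.98e-10). Psmd4 thus stood 2.47-fold higher with WY in HZ and 2.13-fold higher in WT livers.

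The other non-ATPase subunits of the cap rose as well, 11 of 11 in both genotypes. Psmd3 (Rpn3), a structural subunit of the lid, was at 163, 216 and 244 CPM in HZ WY against 86.4, 116 and 142 CPM in HZ vehicle livers, and at 188, 224 and 234 CPM in WT WY against 115, 133 and 140 CPM in WT vehicle livers, again with no overlap. Its log2 fold change was 0.87 in HZ and 0.77 in WT livers. Psmd14, the deubiquitinase of the lid, rose by 0.63 in HZ and 0.50 in WT livers on the log2 scale. Psmd2 (Rpn1), a scaffold that docks ubiquitin shuttles, rose by 0.54 in HZ and 0.40 in WT livers. Psmd13 rose by 0.49 in HZ and 0.63 in WT livers. Its exons share 342 bases with Sirt3 on the other strand, and no source states that counting used strand, so reads from these bases cannot be assigned with certainty. The smallest changes of the class were those of Psmd6 in HZ (0.38) and Psmd1 in WT livers (0.28).

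Of the 6 ATPases, which form the ring that unfolds substrates, 5 rose in each genotype. Psmc5 was at 103, 131 and 142 CPM in HZ WY against 57.8, 71.3 and 85.1 CPM in HZ vehicle livers, and at 118, 133 and 151 CPM in WT WY against 71.0, 84.8 and 93.0 CPM in WT vehicle livers. Both pairs of groups are separate, and the log2 fold change was 0.82 in HZ and 0.68 in WT livers. Psmc4 rose by 0.76 in HZ and 0.61 in WT livers, and Psmc2, Psmc3 and Psmc1 rose by 0.52 to 0.56 in HZ and 0.41 to 0.51 in WT livers. Exons of Psmc3 share 215 bases with Slc39a13 on the other strand. Psmc6 was the only one of the 31 constitutive core and cap genes that did not pass in edgeR. It had 109, 128 and 147 CPM in HZ WY against 102, 117 and 133 CPM in HZ vehicle livers and 132, 139 and 147 CPM in WT WY against 115, 127 and 140 CPM in WT vehicle livers. These groups overlap, with log2 fold changes of 0.14 ± 0.06 in HZ (adjusted p = 0.0618) and 0.13 ± 0.06 in WT livers (adjusted p = 0.0946).

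In the core, all 7 tested constitutive beta genes rose in both genotypes. Psmb5, the chymotrypsin-like subunit, was at 17.9, 21.1 and 26.4 CPM in HZ WY against 10.8, 13.5 and 14.3 CPM in HZ vehicle livers. In WT livers it was at 22.7, 23.7 and 28.4 CPM with WY against 12.6, 13.5 and 15.1 CPM with vehicle. Neither pair overlaps, and the log2 fold change was 0.73 ± 0.07 in HZ (adjusted p = 3.32e-09) and 0.85 ± 0.07 in WT livers (adjusted p = 4.24e-10). Psmb6, the caspase-like subunit, rose by 0.63 in HZ and 0.70 in WT livers, also without overlap. Psmb7, the trypsin-like subunit, rose by 0.33 in HZ livers, where the groups overlap (158 to 196 CPM with WY, 115 to 167 CPM with vehicle), and by 0.41 in WT livers, where they do not (194 to 214 CPM with WY, 135 to 165 CPM with vehicle). The non-catalytic Psmb4 rose by 0.70 in HZ and 0.83 in WT livers, and Psmb1 changed least, by 0.21 in HZ and 0.29 in WT livers. The mm10 annotation lists processed copies named Psmb5-ps, Psmb6-ps, Psmb6-ps2 and Psmb7-ps2, and reads of the parent genes could be split with them. Exons of Psmb7 share 405 bases with Nek6 on the other strand.

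All 7 alpha genes other than Psma8 rose in both genotypes. Psma5 changed most of them. It was at 27.9, 34.5 and 41.9 CPM in HZ WY against 14.9, 19.4 and 22.4 CPM in HZ vehicle livers, and at 33.7, 37.5 and 40.9 CPM in WT WY against 16.3, 23.2 and 24.4 CPM in WT vehicle livers. The groups are separate in both genotypes, with a log2 fold change of 0.87 in HZ and 0.74 in WT livers. The other 6 rose by 0.38 (Psma3) to 0.50 (Psma4) in HZ and by 0.38 (Psma3) to 0.59 (Psma7) in WT livers. Psma8 was at 1.31 to 5.48 CPM in HZ WY and 1.78 to 3.73 CPM in HZ vehicle livers, and at 2.68 to 4.23 CPM in WT WY and 1.97 to 4.22 CPM in WT vehicle livers, and did not pass in either genotype.

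Counted by separation, every WY liver was above every vehicle liver for 21 of the 31 constitutive core and cap genes in HZ (67.7%, against 12.6% of all genes tested) and for 30 of the 31 in WT livers (96.8%, against 15.7% of all genes tested). The median log2 fold change of the 31 was 0.52 in HZ and 0.45 in WT livers, and 30 of the 31 rose in each. Across the 48 genes the WY changes in HZ and WT livers, which share no libraries, correlated with r = 0.82 (Spearman 0.82). This describes genes within 1 pair of fits, not independent replicates.

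Of the 7 assembly chaperones, 4 rose in HZ and 5 in WT livers. The 4 chaperones of the core, Psmg1 to Psmg4, rose in both genotypes. Psmg3, part of the dimer that builds the alpha ring, was at 13.0, 14.9 and 18.9 CPM in HZ WY against 8.63, 10.8 and 11.4 CPM in HZ vehicle livers, and at 17.4, 18.5 and 19.7 CPM in WT WY against 8.54, 10.6 and 11.4 CPM in WT vehicle livers. These groups are separate, with log2 fold changes of 0.54 ± 0.08 in HZ (adjusted p = 2.12e-06) and 0.86 ± 0.08 in WT livers (adjusted p = 1.18e-09). Its partner Psmg4 rose by 0.52 in HZ and 0.50 in WT livers, and the pair Psmg1 and Psmg2 rose by 0.34 and 0.25 in HZ and by 0.52 and 0.43 in WT livers. Exons of Psmg3 share 280 bases with Gm26938 on the same strand. Of the chaperones of the cap, Psmd9 rose in WT livers (0.31, adjusted p = 0.00554) and had a log2 fold change of 0.031 in HZ livers (adjusted p = 0.797), while Psmd5 and Psmd10 passed in neither genotype. Exons of Psmd9 overlap Gm26745 on the other strand over 25.5% of their length, and with a term for the vehicle animals numbered 71 to 78 its change in WT livers no longer passed (0.19, adjusted p = 0.0758).

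Among the activators and inhibitors, Psme1, a subunit of the interferon-inducible activator PA28, rose by 0.46 in HZ and 0.48 in WT livers. It was at 92.3 to 114 CPM in HZ WY against 64.4 to 87.2 CPM in HZ vehicle livers, and at 93.9 to 115 CPM in WT WY against 61.0 to 80.4 CPM in WT vehicle livers, without overlap. Its partner Psme2 was at 22.7 to 27.4 CPM in HZ WY and 19.3 to 26.2 CPM in HZ vehicle livers (log2 fold change 0.11, adjusted p = 0.199). In WT livers Psme2 was at 24.2 to 33.0 CPM with WY and 20.5 to 23.3 CPM with vehicle and rose by 0.32 (adjusted p = 0.000301), a call that was lost once the transcript length trend described below was removed (0.10, adjusted p = 0.240). Psme3, the nuclear activator, rose by 0.39 in HZ and 0.31 in WT livers, and the inhibitor Psmf1 by 0.45 and 0.23. Psme4, a nuclear activator with a long transcript, was the 1 gene called lower in WT livers (184 to 222 CPM with WY, 203 to 249 CPM with vehicle, log2 fold change -0.17 ± 0.07, adjusted p = 0.0444). That direction turned with the length trend removed (0.048, adjusted p = 0.564). The call was also lost without a filter on low counts (adjusted p = 0.0820), with a term for vehicle animals 71 to 78 (adjusted p = 0.0794), and without any 1 of WT WY animals 6, 10, 19, 20 and 24 and WT vehicle animals 29, 32, 37, 74 and 78.

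The 3 immunoproteasome genes were not called higher with WY in either genotype. Psmb9, the inducible counterpart of Psmb6, was at 5.81, 7.17 and 10.2 CPM in HZ WY against 7.08, 9.23 and 17.9 CPM in HZ vehicle livers, and at 4.82, 5.68 and 6.46 CPM in WT WY against 4.07, 6.75 and 9.03 CPM in WT vehicle livers. The groups overlap in both genotypes. Psmb9 fell in HZ livers, with a log2 fold change of -0.47 ± 0.17 (edgeR adjusted p = 0.0206; 6 of 7 WY livers lay below the vehicle median), and had -0.25 ± 0.18 in WT livers (adjusted p = 0.242). The HZ call was lost without HZ vehicle animal 38 alone (-0.29, adjusted p = 0.103), with the HZ groups fitted alone (-0.46, adjusted p = 0.0575) and without the 5 HZ libraries that stand apart (-0.21, adjusted p = 0.313).

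Psmb8, the counterpart of Psmb5, was at 11.4, 14.6 and 25.1 CPM in HZ WY against 10.7, 16.5 and 38.9 CPM in HZ vehicle livers (log2 fold change -0.21 ± 0.22, adjusted p = 0.438). In WT livers it was at 10.6, 12.6 and 16.3 CPM with WY against 7.51, 12.6 and 14.7 CPM with vehicle (0.12 ± 0.23, adjusted p = 0.684). The groups overlap widely in both genotypes. The sign of Psmb8 turned without the 5 HZ libraries in HZ livers (0.0036) and with the length trend removed in WT livers (-0.031). Psmb10, the counterpart of Psmb7, was at 12.6, 16.0 and 20.4 CPM in HZ WY against 10.3, 16.5 and 26.4 CPM in HZ vehicle livers (-0.13 ± 0.14, adjusted p = 0.462). In WT livers Psmb10 was at 14.9, 16.1 and 17.6 CPM with WY against 10.4, 13.4 and 18.0 CPM with vehicle. All 7 WT WY livers lay above the WT vehicle median, and 1 vehicle liver lay above them all. The log2 fold change was 0.27 ± 0.14 (adjusted p = 0.112), which passed with limma voom (0.33, adjusted p = 0.0113), with the 2 WT groups fitted alone (0.26, adjusted p = 0.0282), without the 5 HZ libraries (0.27, adjusted p = 0.0482) and without WT vehicle animal 31 (0.35, adjusted p = 0.0408). It was 0.11 with a term for vehicle animals 71 to 78 (adjusted p = 0.553) and 0.086 with the length trend removed (adjusted p = 0.652).

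**Figure D2:**
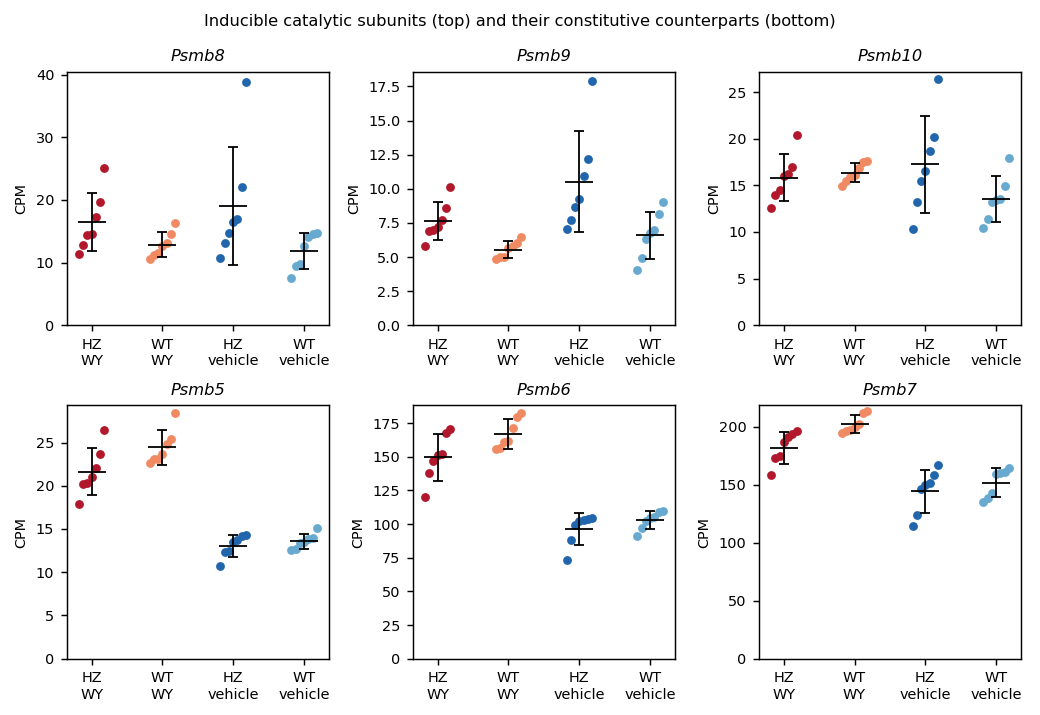
CPM of the inducible subunits Psmb8, Psmb9 and Psmb10 (top row, y axis) and their constitutive counterparts Psmb5, Psmb6 and Psmb7 (bottom row), with 1 point per animal, sorted by value, in HZ WY, WT WY, HZ vehicle and WT vehicle livers and the mean ± SD of 7 animals as lines. Psmb5 lies at 17.9 to 28.4 CPM with WY and 10.8 to 15.1 CPM with vehicle, whereas the points of the top row overlap between treatments, with HZ vehicle animal 38 at the top for Psmb8 (38.9 CPM).

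Set against their counterparts per kilobase in the same liver, the inducible subunits stood lower with WY. The median log2 ratio of Psmb8 to Psmb5 was -1.45 in HZ WY livers (-1.90 to -0.37) and -0.60 in HZ vehicle livers (-1.07 to 0.99). It was -1.88 in WT WY livers (-2.02 to -1.39) and -0.96 in WT vehicle livers (-1.73 to -0.70). The median log2 ratio of Psmb9 to Psmb6 was -5.19 in HZ WY against -4.23 in HZ vehicle livers and -5.65 in WT WY against -4.66 in WT vehicle livers. In WT livers the 2 treatments do not overlap for Psmb9 to Psmb6 (at most -5.42 with WY, at least -5.40 with vehicle). In HZ livers they overlap for this ratio (-5.34 to -4.31 with WY, -4.59 to -2.78 with vehicle), and the treatments overlap in both genotypes for Psmb8 to Psmb5. The ratio of Psmb10 to Psmb7 differed less, with medians of -3.75 in HZ WY against -3.43 in HZ vehicle livers and -3.83 in WT WY against -3.58 in WT vehicle livers, and overlapped in both genotypes. These ratios are descriptions and were not tested.

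**Figure D3:**
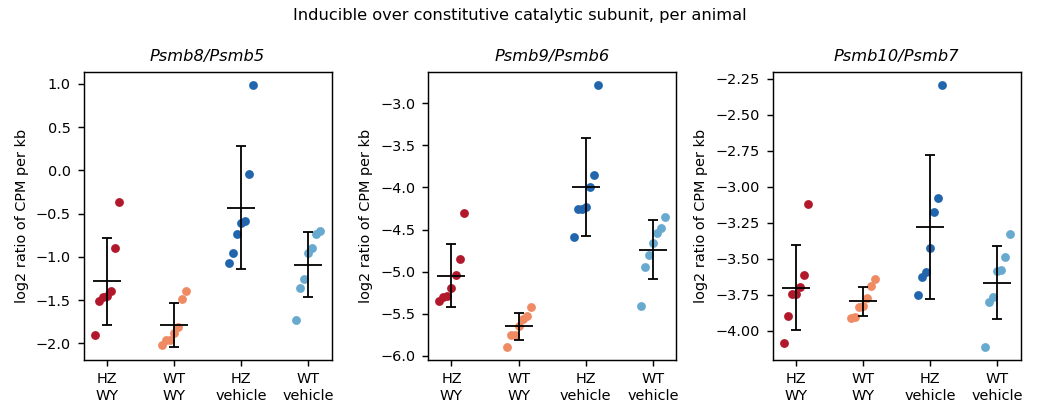
Log2 ratio of CPM per kb (y axis) of each inducible subunit over its constitutive counterpart in the same liver, 1 point per animal with the mean ± SD of 7 animals, in HZ WY, WT WY, HZ vehicle and WT vehicle livers. The median of Psmb9 over Psmb6 is -5.19 in HZ WY and -5.65 in WT WY livers, below -4.23 in HZ vehicle and -4.66 in WT vehicle livers.

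Transcript length moved with the WY response across the genome and is given here beside it. The tested genes with a matched transcript length were put into 4 classes of about 3130 genes each by length, and 33 of the 48 fell in the shortest (65 to 1972 bases). In that class 41.7% of all genes were higher with WY in HZ livers and 46.0% in WT livers. Of the 33 found by the symbol rule, 26 and 28 were higher, with Psmc3ip, no proteasome subunit, among the 28 in WT livers. The median change of all genes on the log2 scale was 0.17 in the shortest and -0.15 in the longest class in HZ livers, and 0.21 and -0.24 in WT livers. With the length trend of each library removed, an alternative chosen after seeing the data, 29 of the 31 constitutive core and cap genes were higher in HZ and 30 of 31 in WT livers, with medians of 0.39 and 0.37. The 3 immunoproteasome genes, at 1311 to 1628 bases, are among the 33 in the shortest class. The part of length in their difference from the other proteasome genes was not tested.

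**Figure D4:**
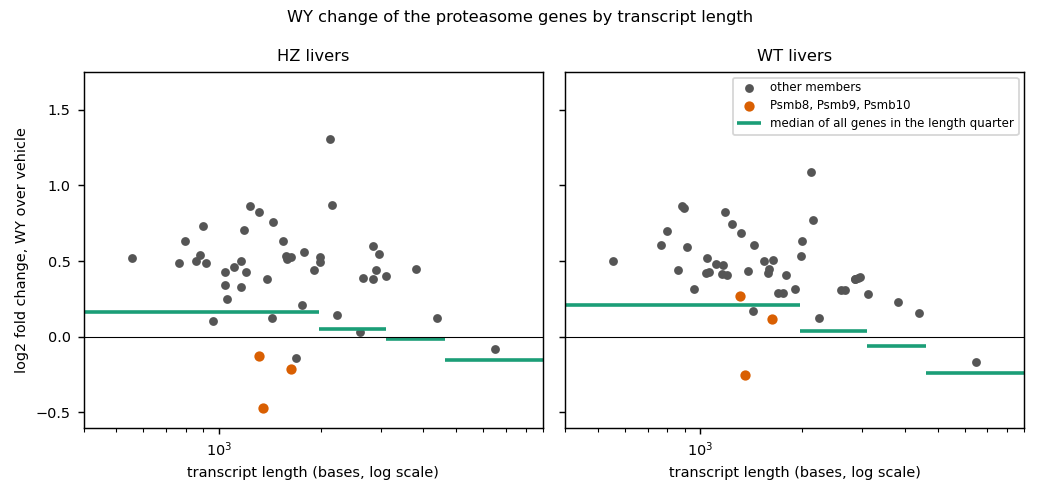
Log2 fold change of WY over vehicle (y axis) against transcript length (x axis, log scale) for the proteasome genes in HZ (left) and WT (right) livers, with green lines at the median of all tested genes in each of 4 length classes. Most points lie above the line of the shortest class (0.17 in HZ, 0.21 in WT livers), and the orange immunoproteasome genes lie near or below it.

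The genotype comparison asks whether losing a Sirt6 copy altered these genes, under WY and under vehicle. The constitutive genes lay slightly lower in heterozygotes under both, mostly without passing the test. The immunoproteasome genes Psmb8 and Psmb9 had positive values under both, of which Psmb9 under vehicle passed. Under WY, 0 of the 48 genes were called higher and 2 lower in HZ livers, against 1.42% higher and 1.74% lower among all genes tested. Under vehicle, 1 was called higher and 2 lower, against 0.301% higher and 1.77% lower among all genes tested. With DESeq2 size factors in place of TMM scaling, the calls over all genes under WY were 203 higher and 480 lower in place of 179 and 219.

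Under WY, 30 of the 31 constitutive core and cap genes had a negative log2 fold change of HZ over WT. Their median was -0.13, beside 0.0090 over all genes. This difference between genotypes also moved with transcript length, with a median over all genes of -0.099 in the shortest and 0.105 in the longest class. With the length trend removed, the median of the 31 was -0.087, beside -0.036 over all genes. EdgeR called 0 of the 31, with 14 at an unadjusted p under 0.05, as were 3033 of all 12607 genes tested. DESeq2 called 6 and limma voom 5 of the 31 lower, beside 729 and 557 of all genes. The exception in sign was Psmd2 (0.035). Under vehicle, all 31 had a negative value in edgeR with a median of -0.16, beside -0.0014 over all genes, and 2 passed. All genes had a median of -0.044 in the shortest and 0.034 in the longest length class. With the length trend removed, the median of the 31 was -0.13, beside -0.0073 over all genes. In edgeR 18 of the 31 had an unadjusted p under 0.05 under vehicle, as did 2256 of all 12607 genes tested. DESeq2 called 4 and limma voom 10 of the 31 lower under vehicle, beside 389 and 522 of all genes. With limma voom 28 of the 31 were negative. Without the 5 HZ libraries that stand apart, the median was -0.07 under WY (26 of 31 negative) and -0.10 under vehicle (29 of 31 negative), and no member passed. The genes are measured in the same libraries, so their common sign is not independent evidence.

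The 2 genes called lower under vehicle were Psmd4 and Psmc2. Psmd4 had 74.8, 102 and 116 CPM in HZ vehicle against 103, 139 and 149 CPM in WT vehicle livers, with a log2 fold change of -0.37 ± 0.09 (adjusted p = 0.0350). Psmc2, an ATPase of the cap, had 93.7, 111 and 127 CPM in HZ vehicle against 114, 136 and 151 CPM in WT vehicle livers (-0.25 ± 0.07, adjusted p = 0.0454). Both pairs of groups overlap at their edges. Both calls were lost without HZ vehicle animal 30, 35, 36, 38 or 39 and without WT vehicle animal 29, 32, 74, 76 or 78, each left out alone, and that of Psmc2 also without any 1 of HZ WY animals 5, 14, 15, 17 and 18 and WT WY animals 6, 11, 19 and 25. Both were lost with the vehicle groups fitted alone (adjusted p = 0.184 each), without the 5 HZ libraries (Psmd4 -0.31, adjusted p = 0.181; Psmc2 -0.20, adjusted p = 0.246) and with a term for vehicle animals 71 to 78 (adjusted p = 0.125 and 0.149). That of Psmc2 was lost without a filter on low counts (adjusted p = 0.0697) and with the length trend removed (adjusted p = 0.0718) as well.

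The 2 genes called lower under WY were the assembly chaperones Psmg1 and Psmg3. Psmg1 had 20.7, 24.7 and 27.6 CPM in HZ WY against 26.4, 29.1 and 33.8 CPM in WT WY livers (-0.29 ± 0.07, adjusted p = 0.0285). Psmg3 had 13.0, 14.9 and 18.9 CPM in HZ WY against 17.4, 18.5 and 19.7 CPM in WT WY livers (-0.29 ± 0.08, adjusted p = 0.0400). The groups overlap, for Psmg3 through HZ animal 2 alone. Both calls were lost without HZ WY animal 15 or 21 or WT WY animal 10, 11 or 19, that of Psmg3 also without HZ WY animal 5 or 18 or WT WY animal 20 or 24. Both were lost without the 5 HZ libraries (adjusted p = 0.157 and 0.232) and with the length trend removed (adjusted p = 0.0716 each), and that of Psmg3 without a filter on low counts (adjusted p = 0.0675).

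Psmb9 was the 1 gene called higher. It was at 7.08, 9.23 and 17.9 CPM in HZ vehicle against 4.07, 6.75 and 9.03 CPM in WT vehicle livers. All 7 HZ vehicle livers lay above the WT vehicle median, though the groups overlap. The log2 fold change was 0.67 ± 0.17 (edgeR adjusted p = 0.0367), and a two-sided exact permutation test of its log2 CPM gave p = 0.0117, unadjusted and 1 of 12 such comparisons (the smallest p it can give is 0.000583). The edgeR call was lost without HZ vehicle animal 30, 35 or 38 or WT vehicle animal 29, 32, 74, 76 or 78. It was also lost without a filter on low counts (0.67, adjusted p = 0.0513), with the vehicle groups fitted alone (0.69, adjusted p = 0.205), with a term for vehicle animals 71 to 78 (0.59, adjusted p = 0.135), and without the 5 HZ libraries (0.40, adjusted p = 0.301; exact permutation p = 0.0606). The HZ vehicle libraries behind this difference are those that enter the WY comparison of Psmb9 in HZ livers.

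Under WY, Psmb9 was at 5.81, 7.17 and 10.2 CPM in HZ against 4.82, 5.68 and 6.46 CPM in WT livers, with all 7 HZ livers above the WT median. The log2 fold change was 0.46 ± 0.18 (edgeR adjusted p = 0.120, exact permutation p = 0.00175, unadjusted), and it passed with the WY groups fitted alone (0.46, adjusted p = 0.0374). Without the 5 HZ libraries it was 0.44 (adjusted p = 0.173). Psmb8 had a log2 fold change of 0.36 ± 0.23 under WY (adjusted p = 0.341), or 0.16 without the 5 HZ libraries (adjusted p = 0.689), and 0.69 ± 0.23 under vehicle (adjusted p = 0.106). The vehicle value passed with DESeq2 (0.69, adjusted p = 0.0373) and without HZ vehicle animal 71 (0.79, adjusted p = 0.0359), and was 0.28 without the 5 HZ libraries (adjusted p = 0.548). Psmb10 had -0.047 ± 0.14 under WY (adjusted p = 0.873) and 0.35 ± 0.14 under vehicle (adjusted p = 0.186), and the vehicle value passed without HZ vehicle animal 71 (0.44, adjusted p = 0.0394). It was 0.16 without the 5 HZ libraries (adjusted p = 0.723) and 0.23 with a term for vehicle animals 71 to 78 (adjusted p = 0.480).

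**Figure D5:**
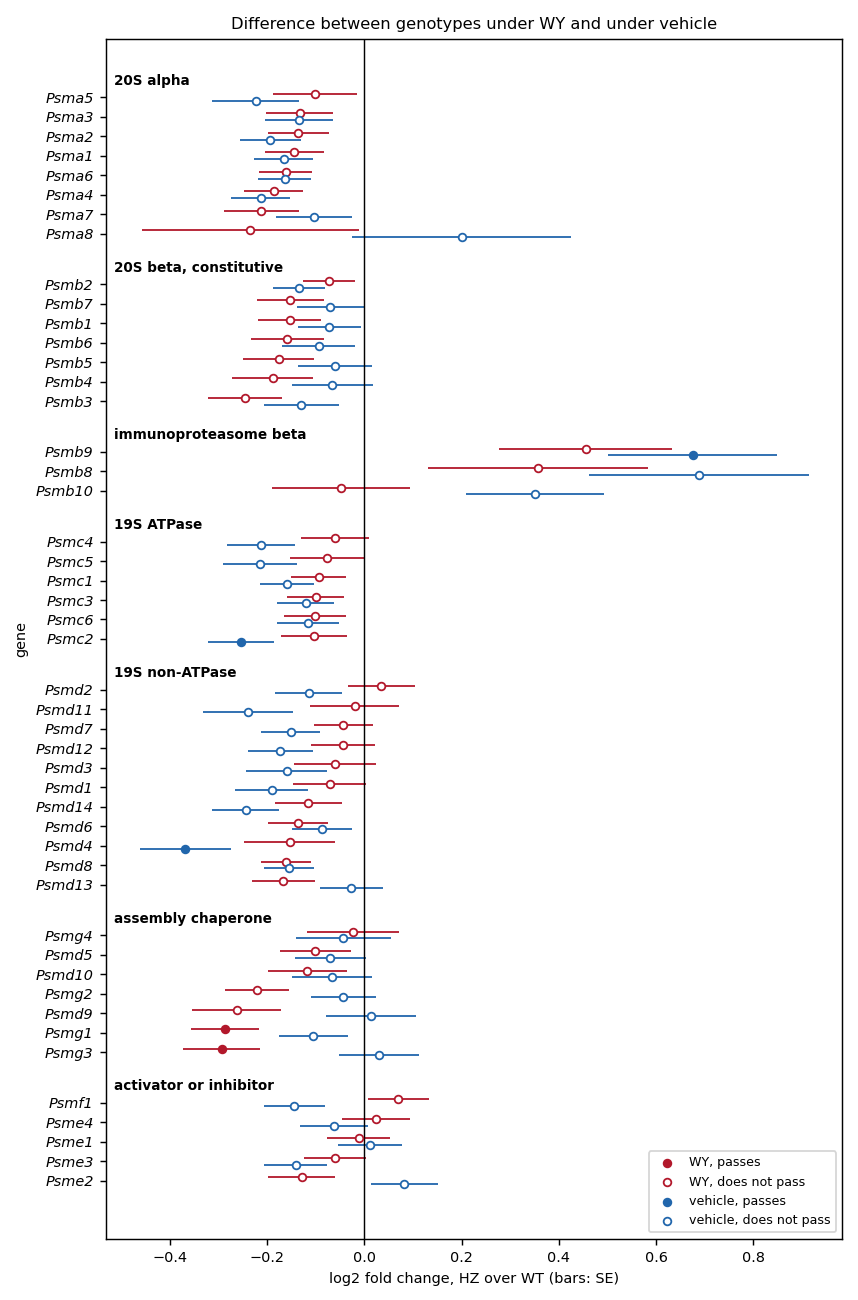
Log2 fold change of HZ over WT (x axis, bars are standard errors) for each tested proteasome gene (y axis, by class, without Psmc3ip) under WY (red, upper) and vehicle (blue, lower), with filled points for genes that passed the test. Core and cap genes lie mostly left of 0 (medians -0.13 under WY and -0.16 under vehicle), while Psmb8 and Psmb9 lie right of it (0.36 and 0.46 under WY, 0.69 and 0.67 under vehicle).

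Leukocyte markers were high in some of the same livers. The summed level of 6 dendritic cell and MHC class II markers was 98.8 to 828 CPM in HZ WY against 85.1 to 143 CPM in WT WY livers, and 99.1 to 519 CPM in HZ vehicle against 78.3 to 198 CPM in WT vehicle livers. The 12 pan-leukocyte and lymphocyte markers summed to 22.9 to 77.9 CPM in HZ WY against 23.8 to 30.2 CPM in WT WY livers. Under vehicle they summed to 23.4 to 83.6 CPM in HZ against 24.0 to 36.3 CPM in WT livers. Only 4 of these 12 passed the low-count filter. The medians lay closer together than these ranges. For the dendritic cell list they were 154 CPM in HZ and 148 CPM in WT livers under vehicle. Under WY they were 240 CPM in HZ and 127 CPM in WT livers. EdgeR called 0 of the 5 tested dendritic cell markers between genotypes under WY. All 5 were higher in HZ livers with an unadjusted p under 0.05. Of the 12 Kupffer cell and macrophage markers, all higher in HZ livers under WY, 0 passed and 10 had such a p. Among all 12607 genes tested, 3033 did. The 12 Kupffer cell and macrophage markers peaked in other animals, at 940.1 CPM in HZ WY animal 14 and 823 CPM in HZ vehicle animal 30. No marker of these lists was at 0 in a whole group. The highest sums of the dendritic cell and pan-leukocyte lists were in HZ WY animal 21 and HZ vehicle animal 38, which also had the highest Psmb8, Psmb9 and Psmb10 of their groups and the lowest mean log2 CPM of the core (6.29 and 5.76) and of the cap (7.03 and 6.40). The sums of 5 stellate cell markers also peaked in these animals within their groups, at 325 CPM (animal 21) and 377 CPM (animal 38). The part of leukocytes and of other cell types in the differences of Psmb8 and Psmb9 was not tested. Exons of Psmb9 share 212 bases with Tap1 and those of Psmb8 share 498 bases with Gm20496, both on the other strand.

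Whether the WY response differed between the genotypes was tested as an interaction. It passed for 0 of the 48 genes and for 0% of all genes in edgeR. Of the 48, 4 had an unadjusted p under 0.05, near the share of 1182 in 12607 among all genes tested, and DESeq2 and limma voom also called 0 of the 48. The 4 were Psmg3 (-0.32, adjusted p = 0.408), Psmf1 (0.21, adjusted p = 0.477), Psme2 (-0.21, adjusted p = 0.514) and Psmd9 (-0.28, adjusted p = 0.516). The interaction of Psmb9 was -0.22 ± 0.25, and that of Psmb8 was -0.33 ± 0.32. The 3 genes called higher in WT and not in HZ livers, namely Psmd9, Psme2 and Psmc3ip, are therefore not shown to differ between genotypes.

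Genes that act with the proteasome but fall outside the symbol rule gave the following. Of 13 tested accessory genes, 7 rose and 1 fell with WY in HZ livers, against 29.3% higher and 26.4% lower among all genes tested. In WT livers 6 rose and 2 fell, against 27.4% and 26.7% of all genes. Adrm1 (Rpn13), a second ubiquitin receptor of the cap, rose by 1.01 ± 0.11 in HZ (adjusted p = 8.72e-09) and 1.01 ± 0.11 in WT livers (adjusted p = 9.44e-09). Shfm1, the small cap subunit also called Sem1, rose by 0.27 in HZ and 0.43 in WT livers. The maturation factor Pomp rose by 0.25 and 0.35, and the cap-bound deubiquitinase Usp14 by 0.33 and 0.17.

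Of 8 genes that control proteasome transcription, 3 rose and 2 fell with WY in HZ livers, and 2 rose and 3 fell in WT livers, which is near the shares of all genes called higher and lower with WY (29.3% and 26.4% in HZ livers, 27.4% and 26.7% in WT livers). Nfe2l1, the factor known to raise proteasome genes when proteasome activity is short, was at 297, 304 and 370 CPM in HZ WY against 167, 180 and 219 CPM in HZ vehicle livers, which do not overlap. In WT livers it was at 301, 369 and 396 CPM with WY against 163, 251 and 276 CPM with vehicle, also without overlap. It rose by 0.82 ± 0.10 in HZ (adjusted p = 3.31e-08) and 0.55 ± 0.10 in WT livers (adjusted p = 1.75e-05). Under vehicle Nfe2l1 was lower in HZ than in WT livers (-0.35 ± 0.10, adjusted p = 0.0472), a value that shares its HZ libraries with the change in HZ livers. This genotype call was lost with the vehicle groups fitted alone and without the 5 HZ libraries that stand apart. In both of these settings 0 of all genes passed between genotypes under vehicle. Ddi2, the protease known to process Nfe2l1, had 0.15 in HZ livers (adjusted p = 0.187) and fell by 0.35 in WT livers (adjusted p = 0.00260). Keap1, which restrains the related factor Nfe2l2, rose by 0.45 in HZ and 0.43 in WT livers.

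Interferon and antigen presentation genes, with which the immunoproteasome is usually switched on, were followed in 3 lists. Their counts are read against the 29.3% of all genes called higher and 26.4% called lower with WY in HZ livers, and the 27.4% and 26.7% in WT livers. Of 12 interferon signalling genes 1 rose and 4 fell in HZ livers, and 0 rose and 6 fell in WT livers. In WT livers 7 of the 12 had an unadjusted p under 0.05, which is near the share of 7450 in 12607 among all genes tested. Irf1, known to drive Psmb9 and Psmb8, had -0.26 ± 0.15 in HZ (adjusted p = 0.149) and fell by 0.59 in WT livers (adjusted p = 0.00230). Jak1 and Jak2, kinases of the interferon receptors, fell by 0.41 and 0.70 in HZ and by 0.45 and 0.69 in WT livers. Of 26 interferon-stimulated genes, 0 rose and 7 fell in HZ livers, and 1 rose (Bst2, 0.32) and 17 fell in WT livers. The count in HZ livers is near the share of all genes that fell. Their median log2 fold change was -0.32 in HZ and -0.92 in WT livers.

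Of 14 genes of MHC class I presentation, 1 rose and 6 fell with WY in HZ livers, and 1 rose and 5 fell in WT livers. The gene that rose was H2-Q10, a secreted class I molecule of liver, by 0.43 in HZ and 0.38 in WT livers. Erap1, the protease that trims peptides in the endoplasmic reticulum, fell by 0.76 in HZ and 0.67 in WT livers, and B2m, the light chain of class I, by 0.41 and 0.39. The peptide transporter gene Tap1, a neighbour of Psmb9, had -0.055 in HZ (adjusted p = 0.792) and -0.21 in WT livers (adjusted p = 0.274). Between genotypes edgeR called 0 of the 52 tested genes of these 3 lists under either treatment, while 17 under WY and 9 under vehicle had an unadjusted p under 0.05. Among all 12607 genes tested, 3033 under WY and 2256 under vehicle did, so the 9 under vehicle are near that share.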

How the data were processed

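Liver RNA of 28 mice was sequenced, and the authors deposited whole-number read counts per gene symbol in 1 table per treatment. The submitters' processing notes name STAR 2.5.0a, HTSeq 0.6.1p1, DESeq2 1.18.1 and build mm10. Neither the annotation nor the strandedness of the counting was given in the sources used here. The 5 HTSeq summary lines were left out: reads placed at several sites came to 35.8 to 42.6% and reads outside genes to 6.35 to 9.08% of all reads in a table column. Symbols that had turned into dates (0.147 to 0.246% of counts) were left out too. The 23393 symbols of both tables were joined.

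Low genes were removed with edgeR's filterByExpr. Counts were scaled by TMM and fitted by edgeR 4.0.16 (robust quasi-likelihood, R 4.3.3) with 4 groups of 7 animals and 24 residual degrees of freedom. P-values were adjusted by the Benjamini-Hochberg method over all 12607 genes tested, with a threshold of 0.05. The code was tested on simulated data. CPM values use TMM library sizes, and log2 CPM a prior count of 2. For groups of 7, values are given as lowest, median and highest. Lengths are those of the longest APPRIS principal transcript, or else the longest transcript, in GENCODE for GRCm38, which is mm10. Each library carries its own animal number, and replicate libraries of a group differed beyond counting error (chi-square per degree of freedom 10.7 or more in every pair).

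The text names Psmb5 to Psmb10, Psme1, Psme2, and, per class and comparison, the genes with the smallest adjusted p and the largest and smallest changes. Other genes, such as Psmd13 and the genes of the 4 unadjusted interactions, were named after their values were seen. Some genes of the lists are not reported here. The members and all gene lists were chosen with earlier results of these data known. Alternatives were DESeq2 size factors, DESeq2 1.42.0, limma 3.58.1 voom with quality weights, no filter, a stricter filter (5 CPM on average), fits of the compared groups alone, leaving out libraries, a term for vehicle animals 71 to 78, and removal of a transcript length trend (spline with 4 degrees of freedom).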

Additional observations from a re-analysis of the deposited data

Results flagged for a closer look

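In groups of 7, a library was picked out when its distance to the nearest other library took up more than 0.568 of the group's range. Chance gives this in about 1 in 20 groups, and 16 of the 192 gene and group pairs met it. Of these, 7 were low values of HZ WY animal 21: Psma3 at 26.9 CPM (next 31.2 CPM), Psmb3 at 32.4 CPM (next 41.4 CPM), Psmc1 at 117 CPM, Psmc2 at 140.1 CPM, Psmc3 at 156 CPM (next 186 CPM), Psmc4 at 114 CPM (next 144 CPM) and Psmd6 at 101 CPM. HZ vehicle animal 38 was low for Psmd7 (68.2 CPM, next 81.2 CPM) and Psmd8 (103 CPM, next 118 CPM) and high for Psmd10 (17.9 CPM, next 13.6 CPM). Both animals are among the 5 HZ libraries that stand apart.

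The other 6 were single values in different libraries. Psme4 was high in HZ vehicle animal 34 (274 CPM). In WT WY livers Psmb2 was high in animal 19 (97.2 CPM), Psmd10 was low in animal 11 (13.8 CPM) and Psmd3 was low in animal 24 (188 CPM). In WT vehicle livers Psma5 was low in animal 31 (16.3 CPM) and Psma8 was high in animal 32 (4.22 CPM).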

How the results depend on the processing

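The WY counts held, at 36 to 38 genes in HZ livers (main 38) and 39 to 45 in WT livers (main 41) over the 9 alternatives, and at 38 to 41 in HZ and 40 to 42 in WT livers when 1 library at a time was left out. The interaction stayed at 0 genes under the 8 alternatives that could be fitted for it and with 1 library left out at a time. The genotype counts did not hold. Under WY the main count of 2 became 7 with DESeq2 size factors, 10 with DESeq2, 8 with limma voom, 1 without a filter, and 0 without the 5 HZ libraries and with the length trend removed. The calls over all genes under WY moved too, from 179 higher and 219 lower in the main fit. In the same order, these settings gave 203, 393, 377, 83, 28 and 53 higher genes. They gave 480, 729, 557, 70, 20 and 231 lower genes. Under vehicle the main count of 3 became 6 with DESeq2, 11 with limma voom, 1 without a filter, and 0 with only the groups compared, without the 5 HZ libraries and with a term for vehicle animals 71 to 78. Over all genes the main fit under vehicle called 38 higher and 223 lower. In the same order, these settings gave 116, 179, 11, 0, 0 and 2 higher genes. They gave 389, 522, 135, 0, 0 and 67 lower genes. With 1 library left out at a time, the count ranged from 0 to 7 under WY and from 0 to 8 under vehicle. It was 0 under WY without HZ WY animal 15 or 21 or WT WY animal 10, 11 or 19, 1 without HZ WY animal 5 or 18 or WT WY animal 20 or 24, and 7 without HZ WY animal 2 or HZ vehicle animal 38. It was 0 under vehicle without HZ vehicle animal 30, 35 or 38 or WT vehicle animal 29, 32, 74, 76 or 78, 1 without HZ vehicle animal 36 or 39, 5 without HZ WY animal 21, 7 without WT vehicle animal 31 and 8 without HZ vehicle animal 71. The exact permutation p-values are unadjusted and come from 12 comparisons. Without the 5 HZ libraries, that of Psmb9 between treatments in HZ livers went from 0.0478 to 0.183 (difference -0.20). Between genotypes under vehicle, the permutation p of Psmb9 went from 0.0117 to 0.0606 (0.42) and that of Psmb8 from 0.0338 to 0.157 (0.30). The WY change of Psme4 in WT livers turned to 0.048 with the length trend removed. Smaller groups leave fewer degrees of freedom, and otherwise the cause was not tested. No paired analysis was possible because no animal number occurs in more than 1 group. Counting depth limits the low genes most: Psmb11 had at most 1 read and Psmc3ip stood below 1.1 CPM in every library.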

Other observations

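Genes that deliver substrates to the proteasome were followed as well. Of 11 tested shuttle and segregase genes, 9 rose and 1 fell with WY in HZ livers, against 29.3% higher and 26.4% lower among all genes tested. In WT livers 8 rose and 0 fell, against 27.4% and 26.7% of all genes, and 8 had an unadjusted p under 0.05, as did 7450 of all 12607. Vcp, the ATPase that pulls ubiquitinated proteins out of complexes, rose by 0.35 in HZ (edgeR adjusted p = 8.54e-06) and 0.36 in WT livers (adjusted p = 5.03e-06), and its adaptors Nploc4 and Ufd1l rose by 0.40 and 0.37 in HZ and by 0.28 and 0.33 in WT livers. Ubqln2 fell in HZ livers (-0.20, adjusted p = 0.0226) and had -0.11 in WT livers (adjusted p = 0.222).

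Of 6 genes that encode ubiquitin or activate it, 3 rose and 1 fell with WY in HZ livers, and 5 rose and 1 fell in WT livers. Among all genes tested, 29.3% were higher and 26.4% lower in HZ livers, and 27.4% and 26.7% in WT livers. Uba1, the main activating enzyme, rose by 0.29 in HZ and 0.23 in WT livers. Its relative Uba6 fell by 0.47 in HZ and by 0.42 in WT livers. Psmc3ip, which the symbol rule brings in without being a subunit, was at 0.288 to 0.859 CPM in HZ WY against 0.322 to 0.533 CPM in HZ vehicle livers, and at 0.452 to 1.02 CPM in WT WY against 0.105 to 0.498 CPM in WT vehicle livers, with 385 exonic bases shared with Mlx on the other strand.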
